A study of Homo sapiens with 12 samples.

Results

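The genes of the human mitochondrial genome were followed in TFK1, an established human cholangiocarcinoma (bile duct cancer) cell line, as all entries of the expression table whose chromosome is MT. They are 37 of 58735 genes: 13 mRNAs, 2 rRNAs and 22 tRNAs. RNA was collected 24 h after treatment from 4 groups of 3 libraries that the labels call biological replicates: untreated control, radiation at 6 Gy, nab-paclitaxel at 1.62 ng/ml, and a combination of the same dose of both. All groups are the same wild-type line, a single cancer line grown alone in culture. Nab-paclitaxel is albumin-bound paclitaxel, a drug that stabilises microtubules, and the study asks how it makes such cells more sensitive to radiation. Whether the replicates are separate cultures is not said, so that the p-values measure the spread between these libraries.

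Mitochondrial DNA is a small circle that codes only for subunits of the respiratory chain and ATP synthase and for the RNAs needed to translate them inside the organelle. Both strands are transcribed into long precursors, in which tRNAs stand between the other genes and are cut out to release the rRNAs and mRNAs. The rRNAs lie next to the promoter of the heavy strand, and the termination factor MTERF1 binds within MT-TL1, just after them. Complexes I, III, IV and V of oxidative phosphorylation combine mitochondrial subunits with many more that the nucleus codes for and the cell imports, and complex II is wholly nuclear.

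Of the 37 genes, 28 lie on the plus strand of the reference and 9, MT-ND6 and 8 tRNAs, on the minus strand. These genes are closely packed, and the boundaries are shown as GENCODE release 29 transcripts on GRCh38 give them. The first is chrM:1562-1710, plus strand, where MT-RNR1, MT-TV and MT-RNR2 follow each other with 0 bases between them. MT-TV is in capitals.

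MT-RNR1 end, MT-TV, MT-RNR2 start: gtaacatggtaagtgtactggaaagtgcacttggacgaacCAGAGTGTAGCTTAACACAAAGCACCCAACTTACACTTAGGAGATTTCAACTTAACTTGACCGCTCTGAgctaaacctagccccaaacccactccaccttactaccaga

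The other end of MT-RNR2 joins MT-TL1 in the same way at chrM:3190-3304, plus strand, with MT-TL1 in capitals.

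MT-RNR2 end, MT-TL1: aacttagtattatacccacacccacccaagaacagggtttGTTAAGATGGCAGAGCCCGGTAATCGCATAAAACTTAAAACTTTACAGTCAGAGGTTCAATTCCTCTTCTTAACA

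MT-ATP8 and MT-ATP6 overlap by 46 bases (chrM:8507-8592, plus strand), and MT-ND4L and MT-ND4 by 7 bases (chrM:10740-10786, plus strand). The shared bases are in capitals.

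MT-ATP8 end, MT-ATP6 start: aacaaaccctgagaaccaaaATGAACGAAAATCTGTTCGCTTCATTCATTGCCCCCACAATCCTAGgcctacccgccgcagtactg

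MT-ND4L end, MT-ND4 start: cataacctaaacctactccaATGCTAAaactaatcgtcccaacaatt

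The minus-strand tRNAs on which results turn are MT-TP (proline, chrM:15956-16023), MT-TS1 (serine, chrM:7446-7514) and MT-TC (cysteine, chrM:5761-5826). They are written 5′ to 3′ on their own strand with the anticodon in capitals.

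MT-TP: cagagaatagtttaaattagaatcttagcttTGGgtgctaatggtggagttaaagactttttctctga

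MT-TS1: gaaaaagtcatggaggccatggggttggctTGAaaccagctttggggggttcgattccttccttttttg

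MT-TC: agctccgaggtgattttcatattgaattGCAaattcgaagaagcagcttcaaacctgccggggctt

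Levels are FPKM, fragments per kilobase of gene, scaled to the size of the library by the authors, which correspond to 14840283 to 17992242 whole fragments per library. Fold changes are differences of log2(FPKM + 1), and a gene rose or fell where limma, fitted to the 13609 genes that averaged 1 FPKM or more, gave an adjusted p under 0.05. All 13 mRNAs, both rRNAs and 21 of the 22 tRNAs passed that filter. Values after ± are SE for fold changes and SD for levels (n = 3 libraries a group). Of the biliary markers, KRT19, KRT8, KRT18, EPCAM and SOX9 were at means of 86.9 to 419 FPKM, while KRT7 was at 0.533. Of 6 macrophage markers 0 reached a mean of 1 FPKM (summed level 0.514 to 1.79 per library), and of 6 fibroblast markers only COL1A1 did, at 5.70. Control 2, nab-paclitaxel 1 and combination 2 stood apart from their groups in a shared way: over all tested genes, their deviations from the group means correlated pairwise at r = 0.332 to 0.543. They are reported with and without where they change a result.

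The 2 rRNAs moved apart. MT-RNR2 (ENSG00000210082, 1671 to 3229), the RNA of the large mitochondrial ribosomal subunit, was higher after radiation and highest in the combination, while MT-RNR1 (ENSG00000211459, 648 to 1601), that of the small subunit, was lower wherever nab-paclitaxel was present. The genes lie 69 bases apart, the length of MT-TV.

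The MT-RNR2 level was 10182, 12120 and 10414 FPKM in control, and 14279.9, 13558 and 14583 after radiation. It was 13996, 10357 and 10751 with nab-paclitaxel and 15538, 18149 and 17911 in the combination. Every combination library lay above every library of the other 3 groups, and nab-paclitaxel 1 stood above the other 2 nab-paclitaxel libraries, at the height of the radiation group. Combination against control was a 1.58-fold rise (log2 0.66 ± 0.13, limma adjusted p = 0.00477). Combination against nab-paclitaxel was a 1.48-fold rise (0.57 ± 0.13, adjusted p = 0.0376). Over the 6 irradiated against the 6 other libraries, MT-RNR2 rose 1.39-fold (0.47 ± 0.09, adjusted p = 0.00595). Radiation against control, at 0.38 ± 0.13, did not pass (adjusted p = 0.123), although its 3 libraries lay above the 3 controls. Without control 2, nab-paclitaxel 1 and combination 2, without nab-paclitaxel 1 alone, and when libraries were scaled to the same total (TPM) or to their nuclear genes, it did. In the other 19 of 23 alternatives it did not pass. Over all alternatives the change ran from 0.08 to 0.48, with a limma adjusted p from 0.00805 to 0.858.

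The MT-RNR1 level was 3547, 3462 and 3387 FPKM in control, and 3504, 3379 and 3599 after radiation. With nab-paclitaxel it was 3305, 2506 and 2499, and in the combination 2527, 2589 and 2883. All 6 libraries with the drug lay below all 6 without it, nab-paclitaxel 1 least so. MT-RNR1 fell in the combination against control (log2 -0.38 ± 0.11, 0.768-fold, limma adjusted p = 0.0325) and over the 6 libraries with against the 6 without nab-paclitaxel (-0.36 ± 0.08, 0.777-fold, adjusted p = 0.00817). Nab-paclitaxel against control gave -0.34 ± 0.11, with an adjusted p of 0.0862. Radiation against control gave 0.01 ± 0.11, with a 95% interval from -0.24 to 0.26.

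These calls differ in how firmly they stand. The rise of MT-RNR2 in the combination against control and with radiation, and the fall of MT-RNR1 with nab-paclitaxel, passed under all alternatives but 1, the one that tested all genes without a filter (adjusted p = 0.610, 0.648 and 0.268). The fall of MT-RNR1 in the combination against control was lost in 10 of 23 alternatives, among them the omission of control 1, 2 or 3, radiation 1, 2 or 3 and combination 1 or 2 (adjusted p up to 0.1002). With the replicate number as a block, its adjusted p was 0.0508, in a range of 0.00237 to 0.474 over the alternatives. The rise of MT-RNR2 in the combination against nab-paclitaxel was lost in 12 of 23, with the replicate block (adjusted p = 0.0822, range 0.00198 to 0.846) and without any 1 of 9 libraries: control 3, radiation 1, 2 or 3, nab-paclitaxel 2 or 3, or combination 1, 2 or 3 (adjusted p up to 0.142).

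The ratio of MT-RNR2 to MT-RNR1 was examined after these values were seen and is given as a description, without a test. It was 2.87, 3.50 and 3.08 in control, 4.08, 4.01 and 4.05 after radiation, 4.24, 4.13 and 4.30 with nab-paclitaxel, and 6.15, 7.01 and 6.21 in the combination. Multiplying a library by a factor leaves this ratio as it is. A difference in how the mRNA kit captured the 2 rRNAs would not cancel in it. MT-RNR1 holds 1 run of 5 or more A and MT-RNR2 holds 7, and whether capture differed between groups was not tested. All 9 treated libraries lay above the 3 controls, nab-paclitaxel slightly above radiation, and the combination clear of both. Control 2 and combination 2 were the highest of their groups, and nab-paclitaxel 1 lay between the other nab-paclitaxel libraries.

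**Figure D1:**
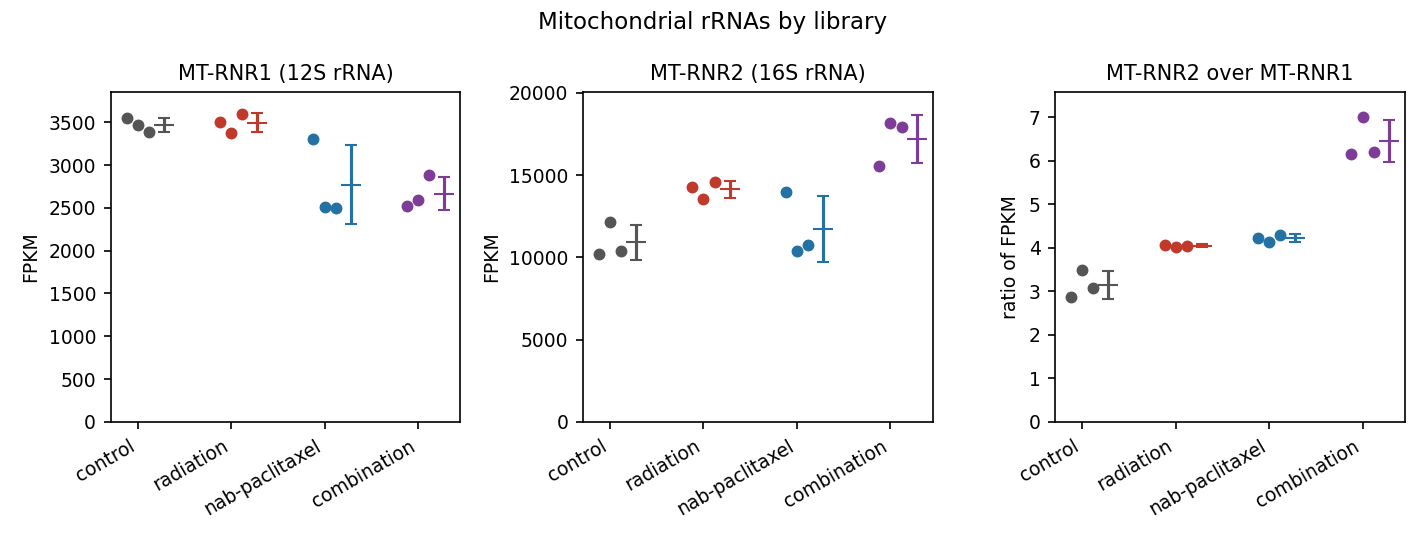
FPKM of MT-RNR1 and MT-RNR2 and the ratio between them (y axes from 0) in the 4 groups; each point is 1 library and the bars show mean and SD of 3. The ratio is 2.87 to 3.50 in control and 6.15 to 7.01 in the combination, with both single treatments between.

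Set against the mRNAs, the group mean of MT-RNR2 was highest and that of MT-RNR1 lowest in the combination. Per length, MT-RNR2 was at 1.14 ± 0.0478 times the mean of the 13 mRNAs in control, 1.42 ± 0.0479 after radiation, 1.33 ± 0.0654 with nab-paclitaxel and 1.84 ± 0.152 in the combination. For MT-RNR1 the same ratio was 0.364 ± 0.0486, 0.352 ± 0.0145, 0.315 ± 0.0219 and 0.286 ± 0.0413. The groups overlapped for MT-RNR1: combination 1, at 0.326, lay above control 2 (0.310), nab-paclitaxel 1 (0.309) and nab-paclitaxel 3 (0.297). In fragments, which are not divided by length, there were 17.5, 15.8 and 17.2 rRNA fragments per 100 mRNA fragments in control, and 19.6, 21.0 and 20.6 after radiation. The numbers were 19.2, 20.2 and 18.2 with nab-paclitaxel and 28.03, 23.7 and 25.3 in the combination. As in the per-length ratio of MT-RNR2, control was lowest, the combination highest, and no library of either overlapped another group. On a log2 scale the group means were -2.57 ± 0.0767, -2.29 ± 0.0508, -2.38 ± 0.0764 and -1.96 ± 0.122. The rRNAs held 2.03 ± 0.103% of all fragments in control, 2.66 ± 0.0672% after radiation, 2.03 ± 0.239% with nab-paclitaxel and 2.95 ± 0.177% in the combination. Libraries were made with an mRNA kit, so these shares describe the RNA that entered the libraries, and in bulk RNA fewer cells of a kind and less RNA per cell cannot be told apart.

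The order of the mRNA levels was similar in all groups, and no mRNA passed the test between groups. The subunits of cytochrome c oxidase (complex IV) led, with mean levels over the 12 libraries of 19882 FPKM for MT-CO1, 18074 for MT-CO3 and 17347 for MT-CO2. MT-ATP6, a subunit of ATP synthase, followed at 16818. MT-RNR2 came next at 13487, then MT-ND4 of complex I at 11150 and cytochrome b, MT-CYB, the mitochondrial subunit of complex III, at 9663. MT-ND3, MT-ND4L, MT-ND2 and MT-ND1, all complex I, formed a group from 5460 to 5701. MT-ND6 was at 3981, MT-ND5 at 3378, MT-RNR1 at 3099 and MT-ATP8, the small partner of MT-ATP6, at 161.

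Several neighbours in this order did not differ beyond their spread. MT-CO3 was above MT-CO2 in 8 of 12 libraries, MT-CO2 above MT-ATP6 in 6, MT-ND3 above MT-ND4L in 3 and MT-ND4L above MT-ND2 in 6. The steps from MT-CYB to MT-ND3, from MT-ND1 to MT-ND6 and from MT-RNR1 to MT-ATP8 held in all 12 libraries. MT-ND6 and MT-ND5, which meet end to end on opposite strands, were at a ratio of 0.949 to 1.34 in 11 libraries and 2.07 in nab-paclitaxel 1. Whether the authors counted by strand is not given in the sources used here, so reads of the 2 strands may not be separated. MT-ATP6 exceeded MT-ATP8 by 79.7 to 140 times per length, although the genes overlap. How fragments in the 46 shared bases were assigned is not stated, so the level of MT-ATP8 (396 to 741 fragments per library) is uncertain, and the same holds on a smaller scale for MT-ND4L.

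**Figure D2:**
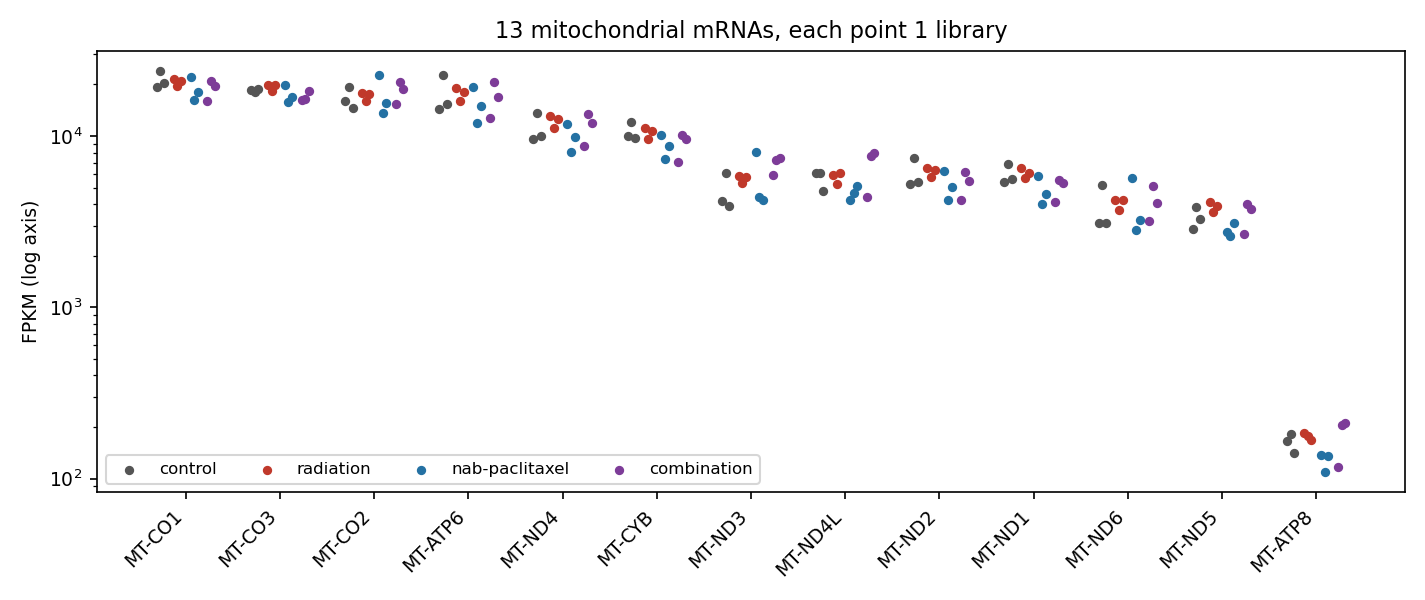
FPKM on a log axis of the 13 mitochondrial mRNAs in order of mean level, 3 libraries in each of 4 groups, each point 1 library. Many groups overlap within a gene, but not all: MT-ATP8 with nab-paclitaxel (109 to 137 FPKM) lies below control (142 to 182). Mean levels run from about 161 for MT-ATP8 to 19882 FPKM for MT-CO1.

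Of the 13 mRNAs 0 passed limma's test in any of the 8 comparisons made: the 5 pairs of groups, the interaction, and the averages over the 6 libraries with and without each treatment, in which 0.00% to 25.9% of all genes passed. At an unadjusted p under 0.05 there was 1 in the combination against control (MT-ND3), 2 in the combination against nab-paclitaxel (MT-ND4L and MT-ATP8), 2 over nab-paclitaxel (MT-ND1 and MT-CYB), 1 over radiation (MT-ND5) and 0 in the other 4. With limma's voom on the recovered fragments, 1 passed in all, MT-ND1, which fell over nab-paclitaxel. Some mRNAs passed under other settings. Over radiation MT-ND4L, MT-ND5 and MT-ATP8 rose without combination 1, MT-ND3 without nab-paclitaxel 1, and MT-ND3 and MT-ND6 without control 2, nab-paclitaxel 1 and combination 2. In the combination against radiation, MT-ND1 and MT-ND2 fell after quantile normalization, MT-CO3 with nuclear-only scaling and MT-ND1 without those 3 libraries. In the combination against nab-paclitaxel, MT-ND4L and MT-ATP8 rose without combination 1, and MT-ND3 without the 3 libraries. In the combination against control, MT-ND4L rose without combination 1 and MT-ND1 fell after quantile normalization, and in radiation against control MT-ND3 and MT-ND6 rose without the 3 libraries. Their median change was 0.08 over radiation (all tested genes, -0.02) and -0.14 over nab-paclitaxel (all tested genes, 0.03). The 95% intervals reached from -0.30 to 0.69 over radiation and from -0.56 to 0.61 over nab-paclitaxel. Average changes of about 1.5-fold in single mRNAs are thus within what these libraries allow. Between pairs of groups the intervals were wider. They reached from -0.61 to 1.08 for the combination against control and from -0.79 to 0.72 for nab-paclitaxel against control.

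MT-ND1 (complex I) showed the lowest unadjusted p of the mRNAs over nab-paclitaxel. Its level was 5358, 6853 and 5637 FPKM in control, 6474, 5718 and 6105 after radiation, 5858, 4012 and 4571 with nab-paclitaxel and 4107, 5502 and 5320 in the combination. The groups overlapped through nab-paclitaxel 1 and combination 2 (log2 -0.31 ± 0.11, limma adjusted p = 0.0653). MT-ND3, also of complex I, went the other way, at 4183, 6047 and 3903 in control, 5815, 5324 and 5793 after radiation, 8104, 4416 and 4223 with nab-paclitaxel and 5905, 7249 and 7445 in the combination. Control 2 and nab-paclitaxel 1 were far above their groups. Combination against control was 0.56 ± 0.24 (adjusted p = 0.108), and the gene passed without control 2, nab-paclitaxel 1 and combination 2 together, without control 2 or nab-paclitaxel 1 alone, and after quantile normalization.

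MT-CO3 was the steadiest mRNA within control, at 18666, 18051 and 18836 FPKM. It was 19806, 18267 and 19856 after radiation, 19789, 15828 and 16799 with nab-paclitaxel and 16188, 16481 and 18317 in the combination. The change over nab-paclitaxel was -0.14 ± 0.08 (limma adjusted p = 0.202). Mitochondrial mRNAs take a large part of all FPKM, so that scaling matters: over nab-paclitaxel, 4 mRNAs fell and 0 rose when each library was scaled to the same total (MT-CO1, MT-CO3, MT-CYB and MT-ND1), the same 4 when it was scaled to its nuclear genes, and 2 fell and 1 rose after quantile normalization (MT-ND1 and MT-ND2 lower, MT-ND3 higher). Without the 3 libraries that stand apart 3 fell (MT-CYB, MT-ND1 and MT-ND2), and without nab-paclitaxel 1 alone 3 fell (MT-CO3, MT-CYB and MT-ND1). Of all 13609 tested genes 1413 fell as deposited, 1354 with TPM scaling and 2260 with nuclear-only scaling. After quantile normalization 1331 of them fell and 1548 rose. Without the 3 libraries 2032 of all genes fell, and without nab-paclitaxel 1 alone 1352.

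**Figure D3:**
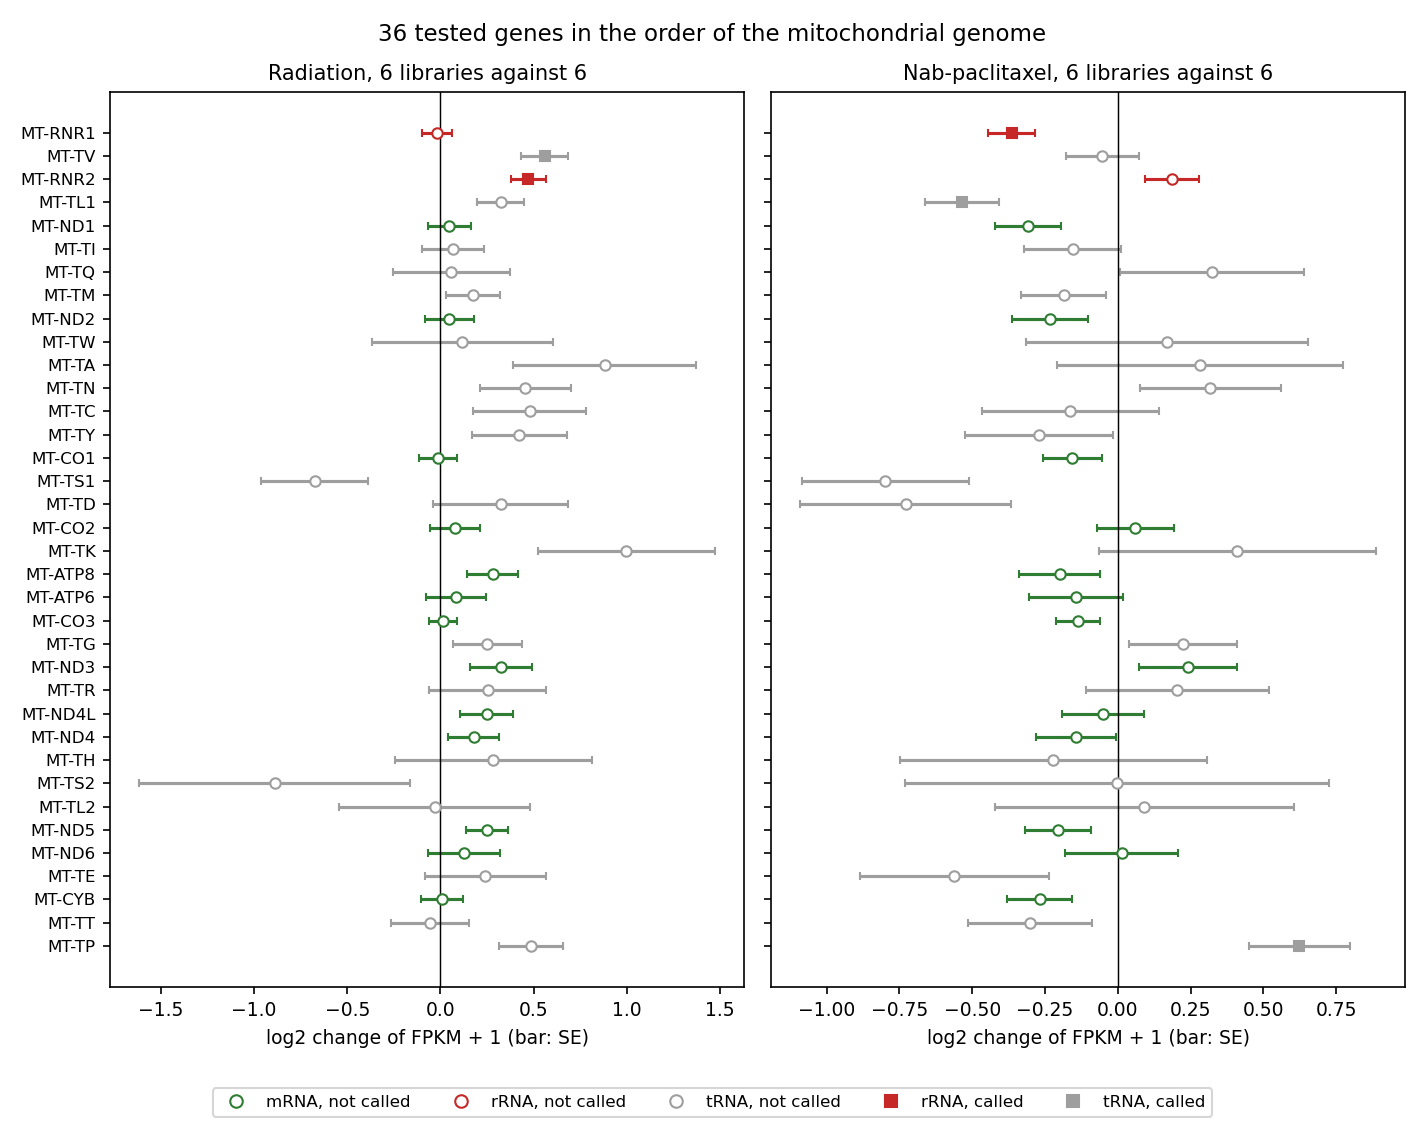
log2 change of FPKM + 1 (x axis, bars SE) of the 36 tested genes in the order of the genome, over radiation (left) and over nab-paclitaxel (right), 6 libraries against 6; filled squares passed limma's test. MT-RNR2 and MT-TV passed over radiation, and MT-RNR1, MT-TL1 and MT-TP over nab-paclitaxel, while the 13 mRNAs, in green, did not.

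The 22 tRNA genes held 0.0421 ± 0.0146% of fragments in control and 0.0598 ± 0.0141% in the combination. Whether a fragment came from the mature tRNA or from a longer precursor cannot be read from these values. Whether counting used the strand is not given either, so fragments from the opposite strand may be included. Most of the signal was assigned to tRNA genes on the minus strand: MT-TN (asparagine) at a mean of 2832 FPKM, MT-TC at 2087, MT-TP at 768 and MT-TY (tyrosine) at 579, followed by plus-strand MT-TL1 (leucine) at 405. The next, MT-TE, was at 54.3, and the lowest tested, MT-TA, at 1.83. MT-TF, the first gene of the genome's plus strand, had 1 or 2 fragments in control 1, control 2 and radiation 1 and 0 in the other 9 libraries, where 3 fragments would be 2.35 to 2.80 FPKM, and was not tested.

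MT-TP rose with the combination. Its level was 519.7, 668 and 425 FPKM in control, 652, 572 and 696 after radiation, 1007, 553 and 620.2 with nab-paclitaxel and 866, 1418 and 1216 in the combination. All combination libraries lay above control and radiation, while nab-paclitaxel 1 lay within the combination's range. The rise against control was 2.16-fold (log2 1.11 ± 0.24, limma adjusted p = 0.00784), and it passed in all 23 alternatives. Over nab-paclitaxel MT-TP rose 1.54-fold (0.62 ± 0.17, adjusted p = 0.0222), which was lost without control 3, radiation 2 or combination 3, without a filter and after quantile normalization (adjusted p up to 0.0832). MT-TP faces the control region of the genome on the minus strand, and its neighbour across 2 bases on the plus strand, MT-TT, did not pass (27.4 ± 7.38 FPKM in the combination, 36.6 ± 16.2 in control).

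MT-TL1, directly behind MT-RNR2, fell with the drug. It was at 426, 379 and 445 FPKM in control, 559.7, 511 and 535 after radiation, 249.8, 277 and 370.4 with nab-paclitaxel and 268, 420.4 and 413 in the combination. The nab-paclitaxel group lay below control and the radiation group above it. Over nab-paclitaxel it fell (log2 -0.53 ± 0.13, 0.691-fold, limma adjusted p = 0.0115), and it passed in all 22 alternatives.

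MT-TV, between the rRNAs, rose after radiation. Its fragments were 23, 17 and 15 in control, 45, 34 and 47 after radiation, 22, 27 and 31 with nab-paclitaxel and 32, 31 and 23 in the combination. The radiation libraries lay above those of control and nab-paclitaxel, at a mean of 35.2 FPKM against 17.1 in control (log2 1.00 ± 0.18, limma adjusted p = 0.00789), and this passed in all 23 alternatives. Over the 6 irradiated libraries the rise was 0.56 ± 0.13 (adjusted p = 0.0131), lost with voom and without the 3 libraries that stand apart. MT-TV and MT-RNR2 are neighbours without a gap, but the tRNA had a mean of 28.9 fragments per library and the rRNA 351159.

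MT-TS1 fell in the combination on very few fragments. They numbered 13, 11 and 7 in control, 11, 18 and 7 after radiation, 7, 12 and 12 with nab-paclitaxel, and 5, 5 and 1 in the combination. The combination lay below the other groups, which overlapped each other. Against control the change was -1.47 ± 0.40 (limma adjusted p = 0.0224), lost without control 1, control 2 or combination 3, without a filter and with only the groups compared (adjusted p up to 0.0786). Against radiation it was -1.47 ± 0.40 (adjusted p = 0.0486), lost in 16 of 23 alternatives, among them the omission of any 1 of 9 libraries: control 1 or 3, radiation 1, 2 or 3, nab-paclitaxel 2 or 3, or combination 1 or 3.

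Set against all genes, the number of calls was not a feature of the mitochondrial genome. Against control, 1 of the 36 tested genes passed with radiation (MT-TV) where 5.93% of all 13609 genes did. With nab-paclitaxel 0 passed limma's test, 2 had an unadjusted p under 0.05 (MT-RNR1 and MT-TL1) and voom called 0, where 8.82% of all genes passed. In the combination 4 passed (MT-RNR2, MT-TP, MT-RNR1 and MT-TS1), where 22.9% of all genes did. Combination against radiation gave 1 (MT-TS1; background 7.75%) and against nab-paclitaxel 1 (MT-RNR2; 3.92%). Over nab-paclitaxel 3 passed (25.9%) and over radiation 2 (14.4%). The interaction of the treatments gave 0 by limma and by voom (0.00% of all genes), with an unadjusted p under 0.05 for MT-TV and MT-TS1. For MT-RNR2 the interaction was 0.19 ± 0.18, so the larger rise in the combination was not shown to exceed the sum of the single treatments on the log scale.

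The 3 libraries that stand apart differed from their replicates in several tRNAs, though not all in the same direction. MT-TC was at 945 FPKM in control 2 against 1969 and 2393, at 875 in nab-paclitaxel 1 against 2385 and 2191, and at 1262 in combination 2 against 2694 and 2527. MT-TY gave 318 against 543 and 647, 258 against 599.7 and 654, and 372 against 661 and 625. The 3 radiation libraries held together, at 2325, 2848 and 2625 for MT-TC. MT-TH, a plus-strand tRNA (histidine), was at 6.61, 10.1 and 10.03 in the 3 libraries and 30.07 to 56.4 in the other 9. MT-TP went the other way and was highest of its group in all 3, at 668, 1007 and 1418.

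In the same 3 libraries MT-ATP6 was at the top of its group, at 22791 FPKM in control 2 against 14365 and 15332, 19237 in nab-paclitaxel 1 against 11925 and 14903, and 20778 in combination 2 against 12664 and 16807. MT-ND6 repeated this, with 5186 against 3111 and 3104, 5713 against 2844 and 3239, and 5127 against 3192 and 4078. What sets these libraries apart was not tested. Without them 6 of the 36 passed with radiation (MT-RNR2, MT-ND3, MT-ND6, MT-TY, MT-TT and MT-TV) and 1 with nab-paclitaxel (MT-RNR1). The combination then gave 5 against control, 5 against radiation and 3 against nab-paclitaxel, and the averages 6 over nab-paclitaxel and 5 over radiation. Of all 13609 tested genes, 2947 then passed with radiation and 1836 with nab-paclitaxel. The combination gave 5049, 4128 and 1301 in the same 3 comparisons, and the averages 5194 over nab-paclitaxel and 3878 over radiation.

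**Figure D4:**
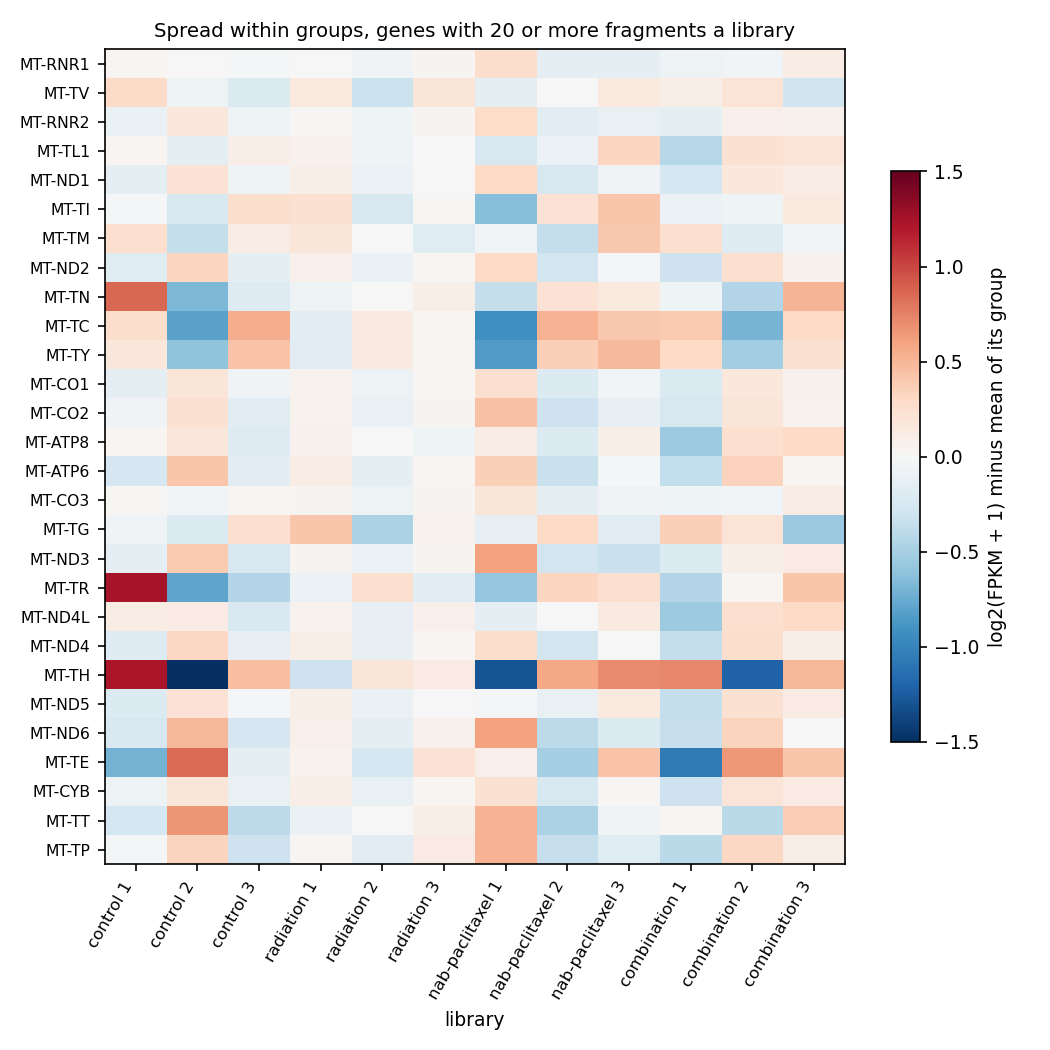
Deviation of log2(FPKM + 1) from the group mean (colour, limited at 1.5) for the 28 mitochondrial genes with at least 20 fragments a library on average, in genome order, by library. Control 2, nab-paclitaxel 1 and combination 2 share low MT-TC, MT-TY and MT-TH and, for most genes, higher mRNAs.

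Copies of mitochondrial genes in the nuclear genome were also assigned fragments. Of 407 listed copies 5 reached a mean of 1 FPKM, and all 5 lie together on chromosome 1: MTATP6P1 (mean 845 FPKM, 633696 to 634376), MTND2P28 (338, 629640 to 630683), MTCO1P12 (33.5), MTCO3P12 (4.42) and MTND1P23 (2.89). Each matches its mitochondrial gene at 98.1% to 98.7% of aligned bases. MTATP6P1 differs from MT-ATP6 at 10 of 681 positions, counted from 1 at the start of the gene, with the first difference, G19A, in capitals in the first 59 bases.

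MT-ATP6: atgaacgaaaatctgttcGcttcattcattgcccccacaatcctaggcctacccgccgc

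MTATP6P1: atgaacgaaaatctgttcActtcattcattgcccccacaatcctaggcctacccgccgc

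The longest stretch without a difference was 141 bases for this pair and 293 for MTCO1P12 and MT-CO1, so that fragments from either place may be assigned to the other, and the sources used here do not say how the authors placed them. MTATP6P1 was at 736, 1321 and 749 FPKM in control, 965, 826 and 894 after radiation, 1080.3, 624 and 622 with nab-paclitaxel and 567, 930.3 and 825 in the combination. Like MT-ATP6, it was highest of its group in control 2, nab-paclitaxel 1 and combination 2. None of the 5 copies passed limma's test in the 8 comparisons (lowest adjusted p = 0.108, MTCO1P12 over nab-paclitaxel).

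Many nuclear-coded subunits of the same complexes rose with the drug. Of the 73 tested nuclear subunits of complexes I, III, IV and V, 41 rose and 1 fell over nab-paclitaxel, where 15.5% of all genes rose and 10.4% fell, with a median change of 0.34 against -0.14 for the 13 mitochondrial mRNAs and 0.03 for all tested genes. Scaled to nuclear genes only, all genes shifted by -0.10 and 25 subunits rose and 2 fell, while all genes split into 967 higher and 2260 lower, against 2110 and 1413 as deposited. After quantile normalization 23 rose and 0 fell, where 1548 of all tested genes rose and 1331 fell. By complex, 17 of 35 subunits rose in complex I, 6 of 9 in III, 8 of 11 in IV and 10 of 18 in V.

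Among those that rose were NDUFB3 of complex I (0.58 ± 0.08, limma adjusted p = 0.000944), UQCRC2, a core protein of complex III (0.46 ± 0.06, adjusted p = 0.000449), COX5A of complex IV (0.48 ± 0.07, adjusted p = 0.000944) and ATP5F1B, the catalytic subunit of ATP synthase (0.53 ± 0.06, adjusted p = 0.000208). The 1 that fell was NDUFA13 of complex I, at a mean of 1.57 FPKM in control and 0.586 in the combination. MT-CYB and MT-CO1, the mitochondrial partners of UQCRC2 and COX5A, gave -0.27 ± 0.11 and -0.16 ± 0.10 and did not pass. Complex II, without a mitochondrial subunit, had 3 of 4 genes that rose (SDHA, SDHB and SDHD). Over radiation 1 of the 73 rose (UQCRC2) and 0 fell, with a median of 0.01, where 5.95% of all genes rose and 8.41% fell (1536 genes higher and 667 lower when scaled to nuclear genes, against 810 and 1144 as deposited). With nuclear-only scaling 5 of the 73 rose, after quantile normalization 4, with the replicate block 0, and without the 3 libraries that stand apart 11 rose and 1 fell. Of all 13609 tested genes, 999 rose after quantile normalization and 634 with the replicate block, while 1670 rose and 2208 fell without the 3 libraries. The difference between nuclear and mitochondrial subunits was not tested as a set.

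**Figure D5:**
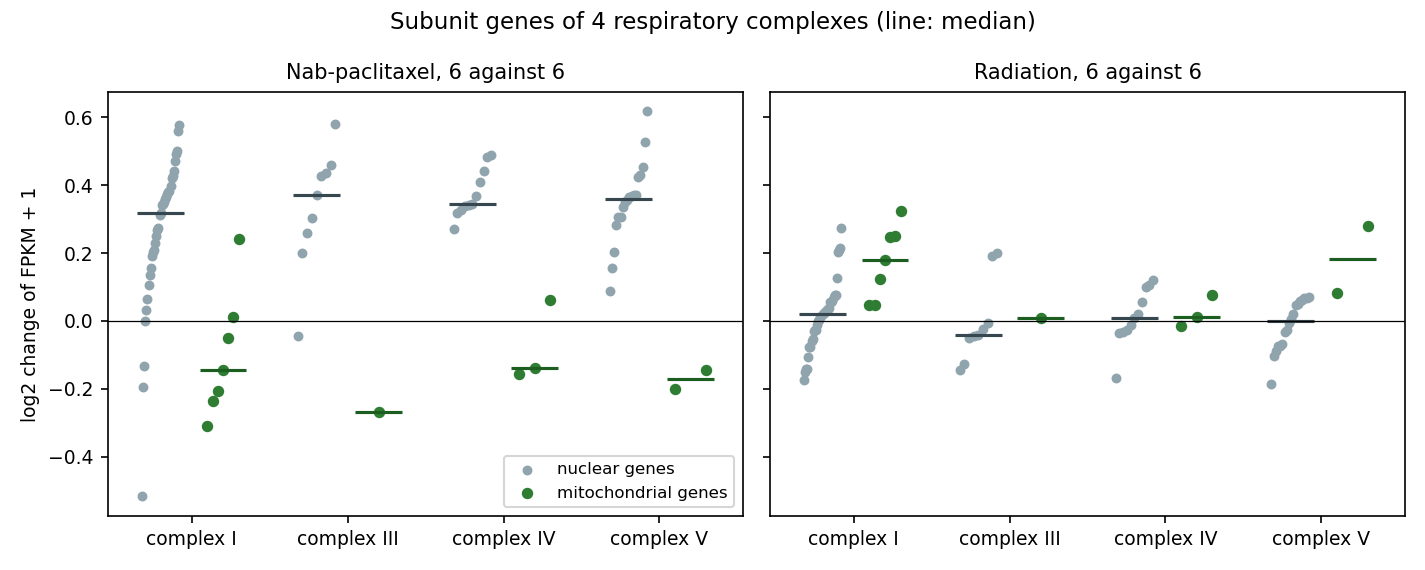
log2 change of FPKM + 1 of nuclear (grey) and mitochondrial (green) subunit genes of 4 complexes over nab-paclitaxel (left) and radiation (right), 6 libraries against 6; each point is 1 gene and the line is the median. Over nab-paclitaxel the nuclear subunits have a median of 0.34 and the mitochondrial ones -0.14.

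The nuclear genes that transcribe, process and translate mitochondrial RNA changed in small numbers. Of 9 transcription genes 2 rose over nab-paclitaxel: POLRMT, the mitochondrial RNA polymerase (0.49 ± 0.09, limma adjusted p = 0.00301), and TFB1M, which methylates the small-subunit rRNA (0.28 ± 0.09, adjusted p = 0.0454). Of 18 processing and decay genes 2 rose, ELAC2, which cuts the 3′ ends of tRNAs, and TBRG4. Of 14 genes for rRNA modification and assembly 5 rose (3 by voom) and 0 fell, among them ERAL1, a chaperone of the small-subunit rRNA (0.19 ± 0.06, adjusted p = 0.0346), and of 11 translation factors 3 rose, TUFM, TSFM and TACO1. Over all tested genes 15.5% rose and 10.4% fell, so that the 2 of 18 lay under this share and the 2 of 9 within 1 gene of it. The median changes of these 4 lists were 0.06, 0.15, 0.09 and 0.08, beside 0.03 for all tested genes.

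Over radiation, where MT-RNR2 rose, 0 of the 14 rRNA genes passed limma's test (2 had an unadjusted p under 0.05, and voom called 0), and MTERF2, a relative of the termination factor, was the 1 of 9 transcription genes that rose (0.40 ± 0.12, adjusted p = 0.0459). Among translation factors MRRF and OXA1L fell, and of the processing and decay genes 1 fell, FASTK. In the combination against control 1 of the 18 processing and decay genes fell, LRPPRC, which stabilises mitochondrial mRNAs (-0.58 ± 0.18, adjusted p = 0.0347), and 1 rose, PDE12, which removes A tails (0.31 ± 0.10, adjusted p = 0.0489). In that comparison 22.9% of all tested genes passed in either direction, so that these calls lay under the share. Of 7 nuclear regulators of mitochondrial genes, 0 passed limma's test over nab-paclitaxel (1 at an unadjusted p under 0.05, 0 by voom) or radiation (3, and 1 that fell by voom). Of 16 genes for mitochondrial DNA maintenance 2 rose and 1 fell over nab-paclitaxel, the last being POLG2, a subunit of the DNA polymerase. Both counts lay under the 15.5% and 10.4% of all tested genes. Of 12 genes used as a measure of mitochondrial mass 9 rose over nab-paclitaxel, among them VDAC1 of the outer membrane (0.40 ± 0.06, adjusted p = 0.00107), and 1 rose and 3 fell over radiation, where 5.95% of all tested genes rose and 8.41% fell.

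Across the 12 libraries the nuclear genes most like the mean log2 level of the 13 mRNAs, of 13573 compared, were PRDM2 (Pearson r = 0.941), MTND2P28 (0.940), THAP6 (0.903), MTATP6P1 (0.900) and RHOBTB3 (0.900). These points share libraries and their scaling, the nuclear copies may share reads with the mRNAs, and the values are a description.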

How the data were processed

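Messenger RNA of TFK1 cells was sequenced in 12 samples, 3 in each of 4 groups taken from the labels. The authors deposited 1 table of FPKM values with gene lengths, per the file headers. Per the submitters' processing notes, reads were referred to hg38. Libraries came from a SMARTer mRNA kit, per the labels' protocols. Which aligner and counter were used, and whether strand was used, is not given in the sources used here.

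FPKM times gene length gave whole multiples of 1 step for 100% of values in each library (within 0.05), so fragments were recovered. The test was limma 3.58.1 (R 4.3.3) on log2(FPKM + 1), with a trend, 1 spread shared by the 4 groups (8 residual and 3.39 prior degrees of freedom), genes with a mean FPKM of at least 1, and two-sided p adjusted by Benjamini-Hochberg within a comparison. "Over" a treatment means the average effect, 6 libraries against 6.

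The members and gene lists were chosen with earlier results of these data known. All mRNAs and rRNAs and the tested tRNAs could be named; of each nuclear list, up to 4 genes that passed with the smallest p, otherwise the 2 highest, and the 5 nuclear genes most like the mRNAs. NDUFA13 was named after its value was seen, as the 1 subunit that fell. Lists got no set test. One biliary marker is not reported here.

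Same-numbered libraries of control and combination deviated together (r = 0.233, 0.543 and 0.172), in no other pair of groups did all 3 numbers exceed 0.1, and no label says that a number marks a common batch. Alternatives were the pseudocount, filter, scaling, trend, voom on fragments, only the groups compared, the replicate block and each library left out. The omission of 3 libraries together and the addition of nuclear copies to the mRNAs were chosen after seeing the data. On simulated data over 13609 genes, 67 genes were given a change of 0.5 (log2) and 67 a change of 1. Of these, 29.9% and 91.0% were called for combination against control, and 58.2% and 95.5% for the average over radiation.

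All 37 genes matched GENCODE release 29 in coordinates and length. Sequences and alignments were handled with Python 3.11.15 and Biopython 1.88.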

Additional observations from a re-analysis of the deposited data

How the results depend on the processing

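No gene called in the main comparisons changed direction under an alternative. MT-TT, not called over radiation (-0.06 ± 0.21, limma adjusted p = 0.900), rose there without control 2, nab-paclitaxel 1 and combination 2 (0.34, adjusted p = 0.0387). What changed was the number of mitochondrially encoded genes called. For radiation against control (1) it became 2 with total (TPM) or nuclear-only scaling and 6 without control 2, nab-paclitaxel 1 and combination 2, and 1 to 2 with 1 library left out (2 without control 3 or nab-paclitaxel 1). For nab-paclitaxel against control (0) it became 1 in those same 3 settings, and 0 to 1 with 1 library left out (1 without nab-paclitaxel 1 or 3). For combination against control (4) it was 1 without a filter, 6 after quantile normalization (MT-ND1 and MT-ND3 added) and 3 to 5 with 1 library left out. For combination against radiation (1) it was 0 with a pseudocount of 0.1, no filter or no trend, 2 with a filter of 5, TPM scaling or only the groups compared, 3 with nuclear-only scaling, quantile normalization or voom, 5 without the 3 libraries, and 0 to 4 with 1 left out (4 without nab-paclitaxel 1, 2 without control 2). For combination against nab-paclitaxel (1) it was 0 without a filter or with only the groups compared, 2 after quantile normalization, 3 without the 3 libraries, and 0 to 2 with 1 left out (2 without nab-paclitaxel 1 or combination 1). Over nab-paclitaxel (3) it was 1 without a filter, 7 with TPM and 8 with nuclear-only scaling, 6 after quantile normalization, 6 without the 3 libraries, and 2 to 6 with 1 left out (6 without nab-paclitaxel 1). Over radiation (2) it was 1 without a filter, 5 without the 3 libraries, and 2 to 7 with 1 left out (7 without combination 1, 4 without nab-paclitaxel 1). The number called of all 13609 tested genes changed as well. Without the 3 libraries it went from 807 to 2947 for radiation against control and from 1055 to 4128 for combination against radiation. Over nab-paclitaxel it went from 3523 to 2825 with TPM and 3227 with nuclear-only scaling, and over radiation from 1954 to 1506 without combination 1. With only the groups compared, nab-paclitaxel against control went from 1200 to 8. The cause was not tested.

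The replicate number was also used as a block (replicate block). Only between control and combination did all 3 same-numbered libraries deviate together. The highest r there, 0.543, was between control 2 and combination 2, which stand apart, and no label names a batch. The block took combination against nab-paclitaxel to 0 and left combination against control at 3, without MT-RNR1.

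By summed FPKM in place of fragments, the mRNA shares were 36.6%, 38.4%, 32.8% and 35.1% in control, radiation, nab-paclitaxel and combination, the rRNA shares 4.22%, 5.24%, 4.14% and 5.69%, and the log2 ratios -3.12, -2.87, -2.98 and -2.62, in the same order of groups. Depth limits MT-TV, MT-TS1 and other tRNAs with few fragments, and intervals cover the spread between libraries only.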
